A study of Mus musculus with 4 samples.

Results

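For each gene, the response to a high-fat diet (HFD) was compared between the sorted cell fractions of the mouse intestinal epithelium, to find genes that differed between diets in a single fraction. The quantity described is a difference of log2 ratios: HFD over control in GFP-low cells, minus HFD over control in GFP-high cells. It was computed for the 10694 of 38124 gene IDs that had at least 20 counts in at least 2 of the 4 libraries. Each ratio is called a diet ratio below and was taken on log2(CPM + 0.5), where CPM are counts per 1000000 after TMM scaling, a scaling of library size. A positive difference means a higher diet ratio in GFP-low, called a larger response below, and a negative difference a lower ratio, called smaller. These words follow the sign and not the size of the change. A gene that was lower under HFD in GFP-low alone is thus called smaller, though it changed more there.

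The libraries were made from C57BL/6 male mice of 71 weeks that had received HFD or the normal diet, the latter called WT in the sample titles. Cells were sorted by GFP into GFP-Hi cells, labelled intestinal stem cells, and GFP-Low cells, labelled progenitors. The 4 groups are GFP-high and GFP-low under HFD and GFP-high and GFP-low under control diet, with 1 library each from sorted cells pooled from 2 to 5 mice. The gene that drives GFP is not named in the labels, and it is not stated whether GFP-high and GFP-low cells were sorted from one set of mice per diet. No value has a replicate, so no test was made, and diet cannot be told apart from other differences between the pools of mice.

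Stem cells at the base of the intestinal crypt divide into progenitors, which become absorptive enterocytes or secretory goblet, enteroendocrine, Paneth or tuft cells. Notch signalling between neighbouring cells steers this choice. Fatty acids from the diet act on PPAR nuclear receptors, which turn on genes of fatty acid uptake and oxidation, while enterocytes absorb lipid and export it as chylomicrons.

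The labelled cell types were checked against defining markers. Lgr5, the R-spondin receptor that marks crypt base stem cells, stood at 242 CPM in both GFP-high libraries and at 12.5 and 12.7 CPM in the HFD and control GFP-low libraries. Epcam, an epithelial adhesion molecule, stood between 864 and 1134 CPM, and Ptprc, which marks leukocytes, had 0 counts throughout. Total counts ranged from 4677389 to 6207080 per library. A count of 0 allows a level of up to 0.450 to 0.678 CPM, depending on the library (a limit of 3 counts). Mitochondrial ribosomal RNA took 1.18% of the counts in the HFD GFP-high library and 2.54% to 2.82% in the others. Intervals below are exact 95% intervals for Poisson counts, made without the added 0.5 CPM. They cover counting error only, and not differences between mice or preparations, since each group has 1 library. The reads carry no molecular identifiers, so repeated copies of 1 molecule are not removed and the intervals may be too narrow.

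Most genes had nearly the same diet ratio in both fractions. The difference had a median of -0.00 over the 10694 genes, with quartiles at -0.22 and 0.20, and 82.9% of genes lay within 0.5 of 0. Across genes, the ratios of the fractions had a Pearson correlation of 0.55 and a Spearman correlation of 0.40, which describes genes and not replicates. In GFP-low, 141 genes (1.32%) were at least 2-fold higher and 239 (2.23%) at least 2-fold lower under HFD, with at least 5 CPM in 1 of the diets. In GFP-high, the same counts were 69 (0.645%) and 142 (1.33%). The 104 genes past 2-fold in both fractions had the same direction in both.

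A gene was counted as differing between the fractions when its difference was at least 1 in size (2-fold), its counting interval excluded 0 and its highest library had at least 5 CPM. By this rule the diet ratio was higher in GFP-low for 111 genes (1.04%), the larger responses, and lower for 151 (1.41%), the smaller ones. The 2-fold limit passed between genes of 1 kind: Fcgbp, a mucus protein, was counted at -1.002, and Muc2, the main mucin of intestinal mucus, was not at -0.99. Counted genes were low, with a median mean level of 9.53 CPM for larger and 10.04 CPM for smaller responses, against 35.2 CPM over all genes.

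Counted genes were then sorted by where they answered the diet. An answer in a single fraction meant at least 2-fold there, under 1.5-fold in the other fraction, and at least 5 CPM in 1 of the diets in both fractions. In GFP-low alone, 19 genes (0.178%) were higher and 29 (0.271%) lower under HFD. In GFP-high alone, 13 genes (0.122%) were higher and 13 (0.122%) lower. Opposite answers of at least 1.5-fold in each fraction were found for 21 genes (0.196%). A further 19 answered at least 1.5-fold in the same direction with unequal size, 56 reached 5 CPM in a single fraction, and 92 met none of these descriptions.

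**Figure D1:**
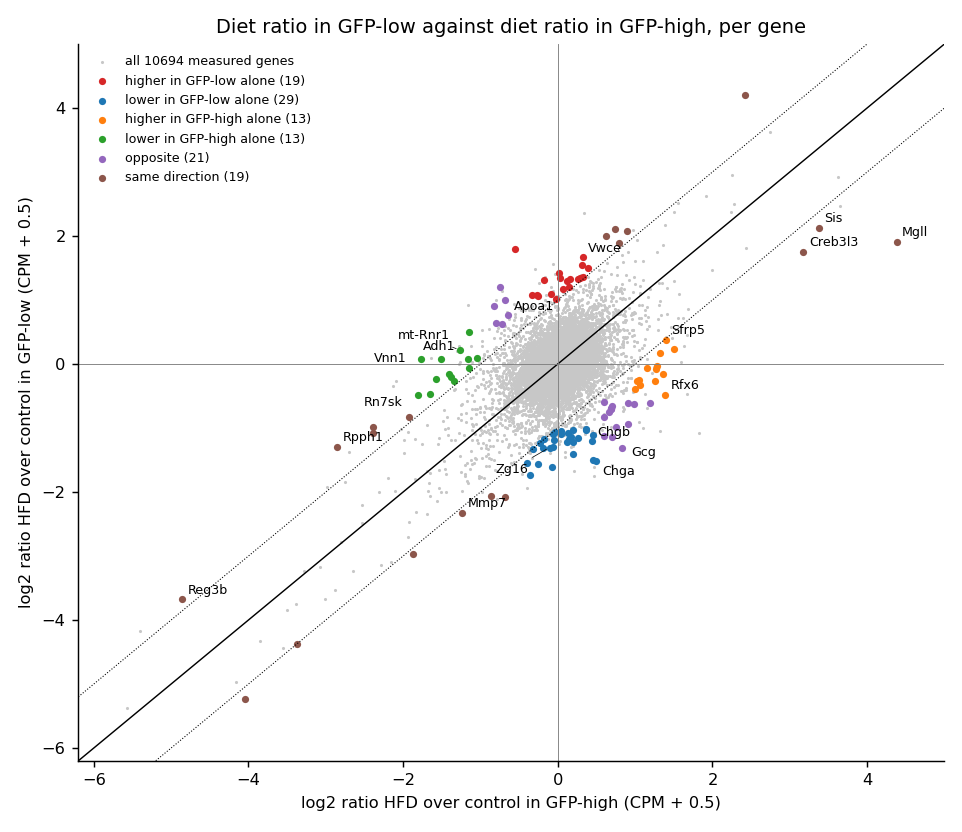
Each point is 1 of 10694 genes, with the log2 ratio of HFD over control in GFP-high on the horizontal axis and in GFP-low on the vertical axis. The solid line marks equal ratios and the dotted lines a 2-fold difference; coloured points are the counted genes of 6 classes, with their numbers in the legend, and the 56 counted genes measurable in a single fraction and the 92 in no class are left grey.

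Many of the named genes with a lower diet ratio in GFP-low than in GFP-high belong to the secretory lineages. The chromogranins and gut hormones of enteroendocrine cells that were counted stood lower under HFD in GFP-low, and in GFP-high their intervals lay above 0 for Chgb and Gcg and included 0 for Chga, Gip and Scg2. The counted goblet genes differed little between diets in GFP-high and stood lower under HFD in GFP-low. Of the 48 measured members of the goblet, enteroendocrine and Paneth lists, 20 were among the 151 genes with a smaller response in GFP-low. That class held 1.41% of all genes. Among the 111 genes with a larger response were 0 of the 48, which is near that class's share of 1.04%.

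Enteroendocrine genes are described first. Chga encodes chromogranin A, a core protein of endocrine secretory granules, and lies at chr12:102554969-102565028 in GENCODE M21 on GRCm38. It had 71 counts in the HFD and 42 in the control GFP-high library, and 374 and 952 counts in the corresponding GFP-low libraries. At 215 CPM the control GFP-low library was far above the HFD GFP-low library at 75.5 CPM, while the GFP-high libraries stood at 10.7 (HFD) and 7.62 CPM. The diet ratio was 0.46 in GFP-high (interval -0.09 to 1.07) and -1.504 in GFP-low (-1.69 to -1.34), a difference of -1.96 (-2.60 to -1.39).

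Chgb, its relative at chr2:132781278-132795079, had 324 and 197 counts in GFP-high and 1422 and 2935 in GFP-low under HFD and control. The pattern was that of Chga, with ratios of 0.44 and -1.21 and a difference of -1.64 (interval -1.93 to -1.37). Gcg, the proglucagon gene at chr2:62474530-62483650, stood on opposite sides of 0. Its levels were 12.0 CPM under HFD and 6.54 CPM under control in GFP-high, and 51.1 and 128 CPM in GFP-low, giving ratios of 0.83 and -1.32 and a difference of -2.15 (interval -2.85 to -1.57).

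Rfx6, a transcription factor of endocrine differentiation at chr10:51677756-51730432, ranked first among genes higher under HFD in GFP-high alone. It had 37 counts under HFD and 10 under control in GFP-high, and 61 and 77 in GFP-low. At 5.55 CPM under HFD and 1.81 CPM under control, it was near the 5 CPM needed to be measurable in GFP-high. Its ratios were 1.39 in GFP-high and -0.48 in GFP-low, a difference of -1.87 (interval -3.39 to -0.93). Thus Rfx6 was counted for a higher HFD level in GFP-high, and Chga and Chgb for a lower HFD level in GFP-low.

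Tph1, the enzyme that starts serotonin synthesis in gut endocrine cells, had 17 and 2 counts in GFP-high and 62 and 120 in GFP-low under HFD and control. With under 5 CPM in both GFP-high libraries, its difference of -2.91 (interval -7.11 to -1.76) rests on few reads. Gip and Scg2, an incretin hormone and a secretogranin, were also measurable in GFP-low alone, with 33 and 26 counts there under HFD against 95 and 74 under control. Pcsk1, the prohormone convertase of endocrine cells, is on none of the lists, and its value was looked up after the data were seen. It had 46 and 27 counts in GFP-high and 73 and 144 in GFP-low, a difference of -1.57 (interval -2.49 to -0.79).

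Of the 24 genes on the enteroendocrine list, 18 were measured, and 9 were counted as smaller and 0 as larger in GFP-low, against 1.41% and 1.04% of all genes. The list's median difference was -1.20, against -0.00 over all genes. In GFP-low 16 of 18 ratios were below 0, with a median of -0.80, and the interval lay below 0 for 11. In GFP-high 11 of the 18 stood under 5 CPM in both libraries, and the sign of their ratio there rests on few reads. The other 7 were above 0 in GFP-high. Over all 18, the GFP-high interval lay above 0 for 7 and below 0 for 1. The members' summed level was 163 CPM under HFD and 113 CPM under control in GFP-high, and 675 and 1455 CPM in GFP-low. The exceptions in direction were few. Sct, the secretin gene, had a difference of 0.93 (interval -0.09 to 2.60) and was not counted. Neurog3, the factor that starts endocrine differentiation, had ratios of 0.58 in GFP-high (interval 0.15 to 1.07) and 0.25 in GFP-low (-0.15 to 0.67). Pax4, a factor acting early after Neurog3, had 0.84 (-0.20 to 2.44) and 0.66 (-0.22 to 1.75), so its direction is not settled in either fraction.

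Promoter sequences are shown for Chga, Chgb and Rfx6, since the response of these endocrine genes differed by fraction, and for Adh1, which led the genes lower under HFD in GFP-high alone. They are RefSeq windows on GRCm38.p6, from 250 bases before to 50 bases after the gene start on the plus strand, at chr12:102554691-102554990 (Chga), chr2:132781392-132781691 (Chgb), chr10:51685268-51685567 (Rfx6) and chr3:138277335-138277634 (Adh1). The RefSeq starts of Chgb, Rfx6 and Adh1 lie inside the GENCODE spans given for these genes, so these annotations place the gene start differently. Capitals mark matches to the motifs searched.
Chga: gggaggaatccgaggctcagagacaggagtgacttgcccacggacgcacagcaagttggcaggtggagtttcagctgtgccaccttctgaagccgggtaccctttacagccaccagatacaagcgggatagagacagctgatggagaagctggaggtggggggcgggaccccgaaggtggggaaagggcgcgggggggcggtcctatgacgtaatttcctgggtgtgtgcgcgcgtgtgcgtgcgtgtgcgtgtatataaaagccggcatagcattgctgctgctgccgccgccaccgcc
Chgb: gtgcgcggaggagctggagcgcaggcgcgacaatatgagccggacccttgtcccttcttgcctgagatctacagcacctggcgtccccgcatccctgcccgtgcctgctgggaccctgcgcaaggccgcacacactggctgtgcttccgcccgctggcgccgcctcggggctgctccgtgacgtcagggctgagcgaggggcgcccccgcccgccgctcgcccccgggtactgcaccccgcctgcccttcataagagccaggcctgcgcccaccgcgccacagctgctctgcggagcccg
Rfx6: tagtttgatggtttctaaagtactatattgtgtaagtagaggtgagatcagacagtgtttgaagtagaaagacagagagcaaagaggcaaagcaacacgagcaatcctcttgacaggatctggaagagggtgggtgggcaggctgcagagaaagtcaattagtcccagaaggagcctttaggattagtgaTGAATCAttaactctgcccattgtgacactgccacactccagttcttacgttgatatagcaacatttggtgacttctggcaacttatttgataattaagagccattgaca
Adh1: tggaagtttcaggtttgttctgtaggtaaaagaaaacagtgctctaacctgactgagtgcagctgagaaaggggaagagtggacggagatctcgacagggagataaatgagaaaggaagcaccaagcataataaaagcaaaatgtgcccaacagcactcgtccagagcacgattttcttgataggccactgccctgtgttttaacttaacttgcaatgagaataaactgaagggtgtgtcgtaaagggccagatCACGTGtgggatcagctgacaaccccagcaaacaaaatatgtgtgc
The windows were searched on both strands for AGGTCA and for a direct repeat of AGGTCA with 1 base between. The other motifs were TGANTCA (a loose AP-1 pattern, with N any base), TTCNNNGAA (STAT), CACGTG (E-box) and CAAAGTCCA (HNF4). Of 8434 promoters of measured genes, these motifs were found in 11.95%, 0.0237%, 4.67%, 6.84%, 10.8% and 0.415%. The direct repeat holds the AGGTCA motif within it. Rfx6 had TGAATCA, a match to the TGANTCA pattern, with its first base at position -60 from the start. Adh1 had CACGTG, the E-box, at position 5. None of the motifs was found in the windows of Chga and Chgb, nor in those of Vwce, Wipf3 and Pnliprp2, which are not printed. A match is a description of the letters only. Anks6, Vnn1, mt-Rnr1, mt-Rnr2, Rn7sk and Rmrp are named without a window.

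Goblet cell genes were lower under HFD in GFP-low and differed by less between diets in GFP-high. All 15 measured members of the list had a difference below 0, with a median of -1.002. As smaller in GFP-low 8 were counted and as larger 0, against 1.41% and 1.04% of all genes. Their median ratio was -1.10 in GFP-low and -0.11 in GFP-high. The summed level of the list was 3464 CPM under HFD and 3902 CPM under control in GFP-high, and 18680 and 42420 CPM in GFP-low. In pooled sorted cells, fewer cells of a type and less RNA per cell cannot be told apart.

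Fcgbp, a mucus protein at chr7:28071236-28120862, is an abundant message, with 13827 and 12915 counts in GFP-high and 54311 and 109892 in GFP-low under HFD and control. Its ratios were -0.18 and -1.18, a difference of -1.002 (interval -1.04 to -0.96). Clca1, a secreted metalloprotease of mucus, had 887 and 761 counts in GFP-high and 8182 and 16741 in GFP-low, a difference of -1.14 (interval -1.29 to -0.99). Zg16, a lectin of the mucus layer, had the lowest difference of the list, -1.20 (interval -1.43 to -0.96), from 338 and 301 counts in GFP-high and 5793 and 12800 in GFP-low. For each of the 3, the control GFP-low library was the highest of the 4 and the GFP-high libraries were within 1.5-fold of each other.

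Other goblet genes near the 2-fold limit included Tff3, a trefoil peptide of mucus (-1.01, counted), Guca2a, the gut peptide guanylin (-1.10, counted), and Agr2, which folds mucins (-0.96, not counted). The transcription factors Atoh1, which sets secretory fate, and Spdef, which matures goblet cells, stood at -0.93 (interval -1.25 to -0.62) and -0.97 (-1.34 to -0.61) and were not counted. Their levels in GFP-low were 81.6 CPM under HFD and 180 CPM under control for Atoh1, and 67.5 and 146 CPM for Spdef. The end members were Ccl9, a chemokine, at -0.21, and Ccl6, another chemokine, at -0.76; both were lower under HFD in GFP-high too, by ratios of -0.68 and -1.01.

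Most Paneth genes were lower under HFD in both fractions, with 11 of 15 below 0 in GFP-high and 13 of 15 in GFP-low. Of 15 measured members, 3 were counted as smaller and 0 as larger in GFP-low, against 1.41% and 1.04% of all genes. The median difference was -0.45, with median ratios of -0.80 in GFP-low and -0.60 in GFP-high. Lyz1, the Paneth lysozyme, had 1543 and 2056 counts in GFP-high and 2889 and 4037 in GFP-low, and its ratios of -0.69 and -0.64 differed by 0.04 (interval -0.07 to 0.16). Mmp7, the protease that activates defensins, was lower by more in GFP-low (-2.32) than in GFP-high (-1.23), a difference of -1.09 (interval -1.41 to -0.77). Pnliprp2, a lipase and another counted member, was higher under HFD in GFP-high, with ratios of 1.004 there and -0.40 in GFP-low. Nupr1, a stress-response gene, was counted too, with ratios of 0.09 and -1.45. Its GFP-high ratio rests on 17 and 13 counts under HFD and control, with an interval from -1.02 to 1.27, so its direction there is not settled. The highest member was Defa22, at 0.89, but alpha-defensins are near-identical and may share reads.

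Tuft markers were mostly too low to measure: 3 of 15 were measured and none was counted. Summed over each list, tuft genes stood between 16.9 and 38.9 CPM, leukocyte genes between 14.1 and 40.2, stromal and endothelial genes between 13.1 and 37.1, and erythroid and pancreatic acinar genes between 11.1 and 29.2 CPM. Each of these sums was highest in the control GFP-low library, the library where goblet and enteroendocrine genes were highest. Of the leukocyte list only Itgam was measured, of the stromal list only Vim, and the pan-leukocyte marker Ptprc was at 0. The part of these cells in the differences was not tested.

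**Figure D2:**
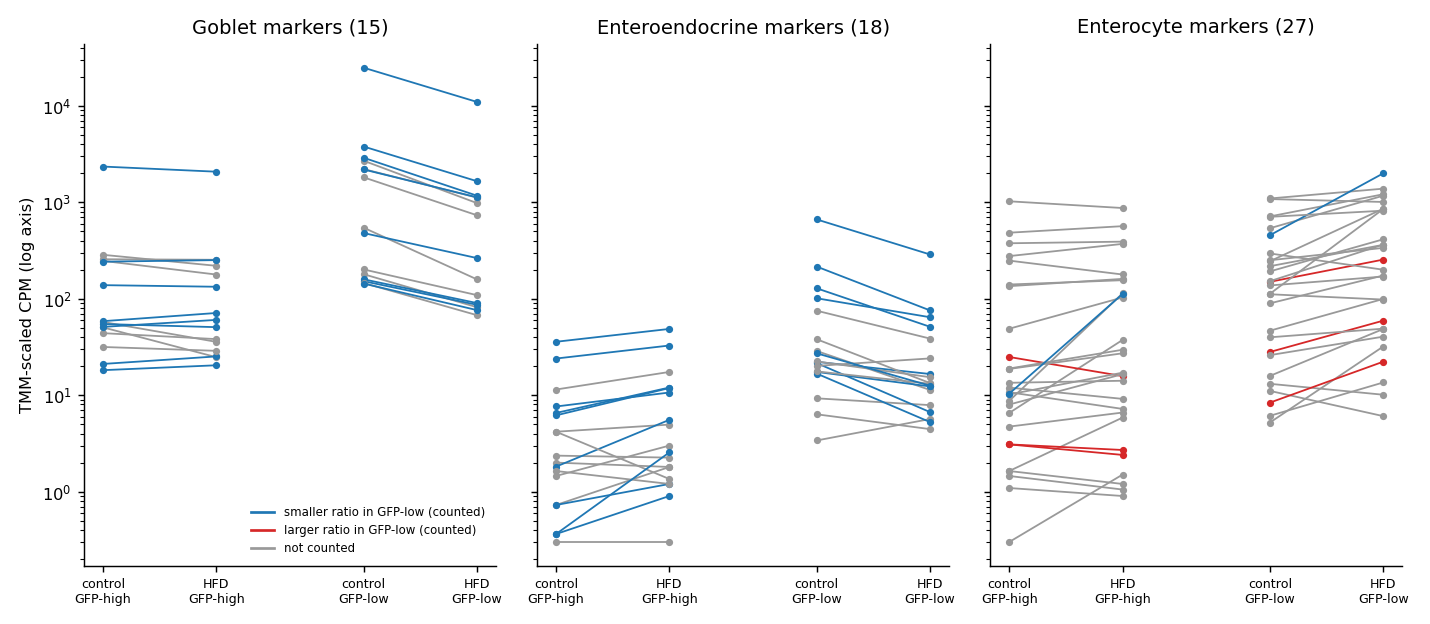
TMM-scaled CPM on a log axis for each measured goblet (15), enteroendocrine (18) and enterocyte (27) marker, with lines joining control and HFD within a fraction; blue lines are genes counted as smaller in GFP-low, red lines as larger, grey lines not counted. Most goblet lines are nearly level in GFP-high and all 15 slope down from control to HFD in GFP-low, and 16 of 18 enteroendocrine lines slope down in GFP-low; 11 of the 18 stand under 5 CPM in GFP-high, where slopes rest on few reads.

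Several genes outside the goblet, enteroendocrine and Paneth lists were also lower under HFD in GFP-low alone. Casc4, a Golgi membrane protein, had 78 and 45 counts in GFP-high and 36 and 96 in GFP-low under HFD and control, a difference of -2.01 (interval -2.91 to -1.28). Hk2, a hexokinase of glycolysis, stood at 100 and 105 CPM in GFP-high, against 41.2 and 102 CPM in GFP-low, so the HFD GFP-low library alone was low, with a difference of -1.23 (interval -1.54 to -0.95). It was the 1 counted gene of 15 in the glycolysis list, whose median difference was 0.17. Esrrg, an orphan nuclear receptor on the stem cell list, had 447 and 489 counts in GFP-high and 66 and 177 in GFP-low. Its difference was -1.15 (interval -1.65 to -0.72). Esrrg was lower under HFD in GFP-high too, by under 1.5-fold, with a ratio of -0.40 (interval -0.59 to -0.22). It was the 1 counted gene of 31 in the stem cell list, with a median of -0.16.

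Dll4, a Notch ligand of secretory precursors, was the 1 counted gene of the 12 measured in the Notch list, whose median was -0.05. Dll4 stood at 21.8 and 27.4 CPM in GFP-high and 26.5 and 67.6 CPM in GFP-low (HFD and control), a difference of -1.01 (interval -1.48 to -0.56). Dll1, a second ligand of these precursors, had a difference of -0.66 (interval -0.89 to -0.43), with 135 CPM under HFD and 212 CPM under control in GFP-low. Jag1 and Jag2, the Notch ligands of the other family, stood on the opposite side of 0. Jag1 had 92 and 115 counts in GFP-high and 128 and 110 in GFP-low, a difference of 0.64 (interval 0.09 to 1.22). Jag2 was low, with 20 and 12 counts in GFP-high and 22 and 9 in GFP-low, and its difference of 0.58 had an interval from -1.03 to 2.39. Hes1, the Notch target that represses secretory fate, had a difference of 0.00 (interval -0.32 to 0.33).

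The 19 genes higher under HFD in GFP-low alone included 0 members of the goblet, enteroendocrine, Paneth and enterocyte lists. Such markers are few: 48 of the 10694 measured genes are on the first 3 lists and 27 on the enterocyte list. A count of 0 among 19 is near that share. The enterocyte markers Lct and Treh were also at least 2-fold higher in GFP-low, but stood under 5 CPM in GFP-high. Most of the 19 genes were low, with a median mean level of 9.46 CPM. Vwce, a secreted protein with von Willebrand factor C domains at chr19:10634213-10666213, ranked first. It had 81 and 53 counts in GFP-high and 194 and 53 in GFP-low under HFD and control, and the HFD GFP-low library stood at 39.2 CPM against 9.62 to 12.2 CPM in the others. The ratios were 0.32 and 1.67, a difference of 1.35 (interval 0.67 to 2.07).

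Wipf3, an actin regulator, had 57 and 60 counts in GFP-high and 90 and 37 in GFP-low, a difference of 1.41 (interval 0.66 to 2.28). Abt1, a nucleolar protein, had 76 counts in each GFP-high library and 78 and 32 in GFP-low, a difference of 1.34 (interval 0.61 to 2.20). For Wipf3 the HFD GFP-low library stood apart at 18.2 CPM, with the others between 8.36 and 10.9 CPM, and for Abt1 the control GFP-low library was the lowest. Ugt1a6a, a glucuronosyltransferase, had 76 and 67 counts in GFP-high and 165 and 68 in GFP-low, a difference of 1.18 (interval 0.55 to 1.87), but it shares exons with 8 other Ugt1a genes and its reads may be split among them. Sh3d21 and Cyb561d2, the remaining genes named by rule, had differences of 1.18 (0.42 to 2.01) and 1.32 (0.42 to 2.39).

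Enterocyte genes as a list stood above 0, with large members on both sides. Of 27 measured, 3 were counted as larger and 1 as smaller in GFP-low, with a median difference of 0.36. The median ratio was 0.76 in GFP-low and 0.22 in GFP-high, and 22 of 27 were above 0 in GFP-low against 17 of 27 in GFP-high. Their summed level was 3216 CPM under HFD and 2890 CPM under control in GFP-high, and 12040 and 6737 CPM in GFP-low.

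Treh and Lct, the brush border enzymes trehalase and lactase, and Apoa1, an apolipoprotein of chylomicrons and high-density lipoprotein, were the counted members with a larger response in GFP-low. Apoa1 lies on chromosome 9 and had 105 and 137 counts in GFP-high and 1259 and 662 in GFP-low under HFD and control. It was lower under HFD in GFP-high (ratio -0.64, interval -1.04 to -0.28) and higher in GFP-low (0.76, 0.63 to 0.90), a difference of 1.41 (1.02 to 1.83). Lct stood at 59.2 and 28.0 CPM in GFP-low but at 2.40 and 3.09 CPM in GFP-high, and Treh at 22.2 and 8.36 CPM against 2.70 and 3.09 CPM. Their ratios in GFP-high therefore rest on 16 to 18 counts per library.

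Sis, the brush border sucrase-isomaltase, was the counted member on the other side. It was far higher under HFD in both fractions, with 746 and 57 counts in GFP-high and 9873 and 2012 in GFP-low. The ratio was 3.37 in GFP-high (interval 3.04 to 3.85) and 2.13 in GFP-low (2.06 to 2.20), a difference of -1.24 (-1.72 to -0.91). Fabp1, a fatty acid carrier, and Alpi, the intestinal alkaline phosphatase, were on the same side, at -0.71 (interval -1.26 to -0.34) and -0.62 (-1.26 to -0.19), and were not counted.

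Solute carriers of the brush border had a median difference of 0.48, the highest of the lists with 8 or more measured members. Of the 17, 15 stood above 0, and none was counted. The median member, Slc9a3, had 6 counts in each GFP-high library and an interval from -1.36 to 2.50. Slc9a3, Slc2a2, Slc6a19, Slc15a1 and Slc46a1 stood under 5 CPM in both GFP-high libraries, where ratios rest on few reads. Slc5a1, the sodium-glucose cotransporter, stood at 156 and 140 CPM in GFP-high and 362 and 217 CPM in GFP-low, a difference of 0.59 (interval 0.41 to 0.77). Slc26a6, an anion exchanger, stood at 7.95 and 8.17 CPM in GFP-high and 111 and 59.2 CPM in GFP-low, a difference of 0.94 (0.30 to 1.59). Slc46a1, the proton-coupled folate transporter, was highest in difference at 1.004, with an interval from -0.04 to 2.14. Of these 17 genes, 5 are also on the enterocyte list.

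Lipid absorption genes showed the same side of 0 with small sizes. Of 25 measured, 20 had a difference above 0, 1 was counted as larger (Apoa1) and 0 as smaller, and the median was 0.26, with median ratios of 0.74 in GFP-low and 0.32 in GFP-high. Apob, the structural protein of chylomicrons, had 3767 and 2663 counts in GFP-high and 5991 and 3154 in GFP-low, with ratios of 0.22 and 0.76 and a difference of 0.54 (interval 0.44 to 0.63). Mttp, which loads lipid onto Apob, had a difference of 0.46 (interval 0.30 to 0.61), and Plin2, a lipid droplet coat protein, one of 0.52 (0.19 to 0.86). Fabp1 was the lowest member.

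PPAR targets answered HFD in both fractions, and a few members answered unequally. Of 35 measured, 34 were above 0 in GFP-low and 30 in GFP-high, with median ratios of 0.81 and 0.49. The median difference was 0.23, with 3 members counted as larger in GFP-low and 2 as smaller. Acot2 and Vnn1 were among the larger ones, and the smaller ones were Mgll and Creb3l3.

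Acot2, a mitochondrial acyl-CoA thioesterase, had 79 and 38 counts in GFP-high and 95 and 18 in GFP-low, a difference of 1.37 (interval 0.48 to 2.46). Its paralog Acot1, a cytosolic thioesterase, had ratios of 2.29 and 2.50 and a difference of 0.22 (-0.69 to 1.43). These genes are closely related and may share reads. Mgll, the lipase that splits monoacylglycerol, had 142 and 3 counts in GFP-high and 95 and 21 in GFP-low. Its ratio was 4.38 in GFP-high, and the difference of -2.48 (interval -5.69 to -1.46) rests on the 3 counts of the control GFP-high library. Creb3l3, a membrane-bound transcription factor of lipid metabolism, had 191 and 15 counts in GFP-high and 850 and 224 in GFP-low, with ratios of 3.18 and 1.75 and a difference of -1.43 (-2.53 to -0.84).

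Vnn1, the pantetheinase and a PPAR target, was the only member of the list that was lower under HFD in GFP-high by more than 2-fold. It had 50 and 148 counts in GFP-high and 76 and 64 in GFP-low, with ratios of -1.77 (interval -2.33 to -1.37) and 0.08 (-0.41 to 0.59) and a difference of 1.86 (1.22 to 2.63). The other 30 measured PPAR targets were not counted, though not all of their differences were small. Cpt1a, which brings fatty acids into mitochondria, had a difference of -0.15 (-0.30 to -0.01), and Angptl4, a lipoprotein lipase inhibitor, 0.50 (-0.34 to 1.47). For Pdk4, the kinase that restrains pyruvate oxidation, it was 0.87 (-0.50 to 3.35). This value rests on 14 counts in the control GFP-high and 4 in the control GFP-low library, so its size is not settled. Of the 19 mitochondrial fatty acid oxidation genes, none was counted, and the median difference was 0.18 with median ratios of 0.73 and 0.65. The lists overlap: 11 fatty acid oxidation genes are also PPAR targets.

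**Figure D3:**
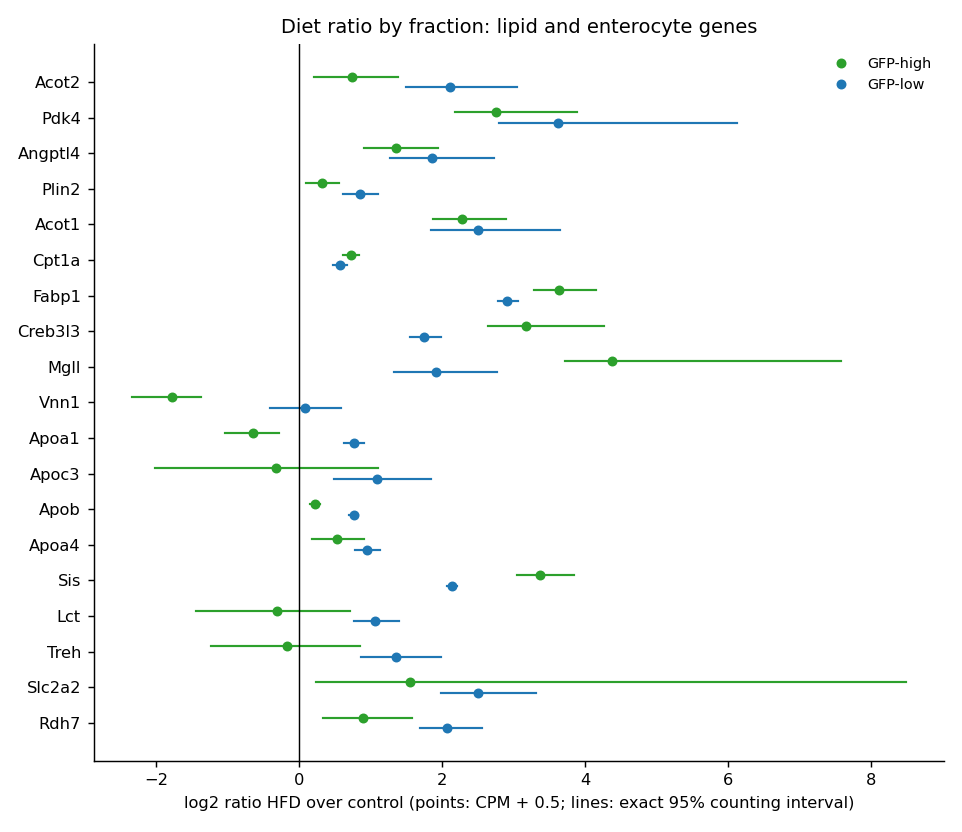
Log2 ratio of HFD over control in GFP-high (green) and GFP-low (blue) for 19 lipid and enterocyte genes, with exact 95% counting intervals as lines. Acot2 lies farther right in GFP-low, Sis, Creb3l3 and Mgll lie farther right in GFP-high, and Vnn1 and Apoa1 have intervals below 0 in GFP-high only.

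Of the 13 genes lower under HFD in GFP-high alone, 7 (53.9%) were annotated as protein-coding, against 96.8% of all genes measured. Adh1, an alcohol dehydrogenase that also oxidises retinol, ranked first and lies at chr3:138260991-138290698, where it overlaps Gm16559 on the other strand. It had 1051 and 2489 counts in GFP-high and 2883 and 2439 in GFP-low under HFD and control. The HFD GFP-high library stood at 158 CPM and the others between 452 and 582 CPM. Ratios of -1.52 (interval -1.62 to -1.42) and 0.08 (0.00 to 0.16) gave a difference of 1.60 (1.47 to 1.73).

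Structural RNAs made up most of the other named genes of this class. The mitochondrial ribosomal RNAs mt-Rnr1 and mt-Rnr2 stood at 3921 and 7034 CPM in the HFD GFP-high library. In the other libraries mt-Rnr1 stood between 9457 and 12200 CPM and mt-Rnr2 between 14510 and 18170 CPM. Their differences were 1.49 (interval 1.46 to 1.52) and 1.14 (1.12 to 1.16).

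Rn7sk, the small nuclear RNA that holds back transcription elongation, had 498 and 1453 counts in GFP-high and 895 and 1122 in GFP-low, a difference of 1.33 (interval 1.14 to 1.53). Rmrp, the RNA of the ribonuclease MRP, overlaps Ccdc107 on the other strand and had a difference of 1.18 (0.94 to 1.43). Both were lower under HFD in GFP-low too, by under 1.5-fold. The GFP-low ratio was -0.49 for Rn7sk (interval -0.62 to -0.36) and -0.47 for Rmrp (-0.64 to -0.30). Rpph1, the RNA of ribonuclease P, overlaps Ccnb1ip1 and was lower under HFD by more than 2-fold in both fractions. Its ratios were -2.85 and -1.29, a difference of 1.56 (1.27 to 1.87). All 5 were lowest in the HFD GFP-high library. The labels say that poly(A)+ RNA was selected, and these RNAs carry no long poly(A) tail. The part of that selection in the differences was not tested.

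Mitochondrially encoded messages did not share this pattern. The 12 measured had differences between 0.00 and 0.19, with a median of 0.10, and none was counted. Linker histone genes, whose messages lack a poly(A) tail in dividing cells, were looked up after the structural RNAs were seen. Hist1h1a had 38 and 52 counts in GFP-high and 47 and 20 in GFP-low, a difference of 1.67 (interval 0.76 to 2.85). All 5 measured linker histones, Hist1h1a to Hist1h1e, had ratios below 0 in GFP-high and above 0 in GFP-low, with a median difference of 0.79; Hist1h1c was the lowest at 0.39 (interval -0.22 to 1.04), and Hist1h1a was the counted one. In GFP-low the interval lay above 0 for Hist1h1a and included 0 for the other linker histones. Over 15 clustered histone genes, the linker histones among them, 12 had a difference above 0, with a median of 0.39. Of the 15, 2 were counted as larger and 0 as smaller. Ratios were below 0 for 14 of the 15 in GFP-high and for 9 in GFP-low, with medians of -0.61 and -0.33.

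**Figure D4:**
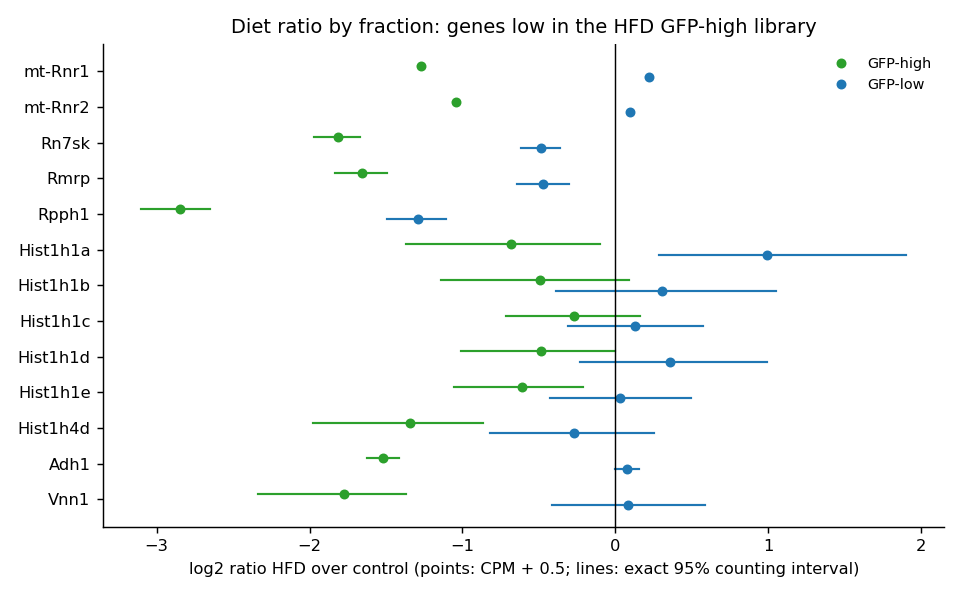
Log2 ratio of HFD over control in GFP-high (green) and GFP-low (blue) for structural RNAs, 6 histone genes, Adh1 and Vnn1, with exact 95% counting intervals as lines, which are narrower than the points for mt-Rnr1 and mt-Rnr2. All 13 genes lie below 0 in GFP-high, and their GFP-low ratios lie to the right of their GFP-high ratios.

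Genes higher under HFD in GFP-high alone were all annotated as protein-coding. Besides Rfx6, the class held Pnliprp2, a pancreatic-type lipase on the Paneth list, with 98 and 39 counts in GFP-high and 69 and 82 in GFP-low, a difference of -1.40 (interval -2.22 to -0.72). Ttr, the thyroid hormone and retinol carrier transthyretin, had 229 and 74 counts in GFP-high and 99 and 78 in GFP-low, a difference of -1.15 (-1.77 to -0.57). The HFD GFP-high library was the highest of the 4 for Ttr, while for Pnliprp2 it stood at 14.7 CPM, below the control GFP-low library at 18.5 CPM. Ttr is known as a product of endocrine cells too, and was on no list.

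Anks6, an ankyrin repeat protein of the primary cilium, had 89 and 27 counts in GFP-high and 71 in each GFP-low library, a difference of -1.51 (interval -2.45 to -0.78). Ift43, a subunit of the intraflagellar transport complex of cilia, had 77 and 29 counts in GFP-high and 29 and 33 in GFP-low, a difference of -1.39 (-2.50 to -0.46). Vwa5b2, whose exons overlap Alg3 on the other strand, had 77 and 27 counts in GFP-high and 108 and 101 in GFP-low, a difference of -1.22 (-2.10 to -0.52). For these 3 genes the control GFP-high library stood at 4.90 to 5.26 CPM, so their GFP-high ratios rest on 27 to 29 control counts. Sfrp5, a secreted Wnt inhibitor and the highest-expressed gene of the class, was picked out after its values were seen. It had 728 and 226 counts in GFP-high and 56 and 38 in GFP-low, a difference of -1.02 (interval -1.67 to -0.34).

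Opposite answers were small in number. Of the 21 genes, 6 were lower in GFP-high and higher in GFP-low under HFD, and 15 the reverse. Besides Apoa1 and Gcg, the rule named Pcdh19, Tpbg and Suox. Pcdh19, a protocadherin, had 63 and 94 counts in GFP-high and 63 and 29 in GFP-low, a difference of 1.73 (interval 0.98 to 2.65). Tpbg, a membrane glycoprotein that dampens Wnt signalling, had 75 and 37 counts in GFP-high and 32 and 66 in GFP-low, a difference of -1.85 (-2.84 to -1.06). Suox, the mitochondrial sulfite oxidase, had 176 and 76 counts in GFP-high and 165 and 225 in GFP-low, a difference of -1.51 (-2.05 to -1.04).

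Genes measurable in a single fraction cannot be called specific to it, since the other fraction was too low. Dpep1, a brush border dipeptidase, stood at 42.6 and 22.4 CPM in GFP-low (HFD and control), but had 3 and 9 counts in GFP-high, a difference of 2.08 (interval 0.74 to 5.33). Cndp1, a carnosine dipeptidase, and Emp1, a membrane protein of differentiated epithelium, also had higher HFD levels in GFP-low, with differences of 1.86 (0.62 to 3.64) and 1.503 (0.52 to 2.73). Rgs2, a regulator of G protein signalling, and Slc36a4, an amino acid transporter, lay on the other side with Tph1, at -1.95 (-3.32 to -1.05) and -2.37 (-6.60 to -0.91).

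Some genes answered the diet strongly in both fractions and unequally. Reg3b, an antimicrobial lectin, had 15 and 437 counts in GFP-high and 178 and 2060 in GFP-low, with ratios of -4.86 and -3.68 and a difference of 1.18 (interval 0.67 to 2.33). Clca3a2, a chloride channel accessory gene, had 483 and 731 counts in GFP-high and 68 and 260 in GFP-low, a difference of -1.19 (-1.67 to -0.79). MHC class II genes were lower under HFD in both fractions, with median ratios of -3.53 in GFP-low and -2.88 in GFP-high, and none of 7 was counted. H2-Aa, an MHC class II alpha chain, had 71 and 1098 counts in GFP-high and 17 and 543 in GFP-low, a difference of -0.81 (-1.80 to -0.14). The class II activator Ciita stood on the other side of 0, at 0.41 (-0.35 to 1.06).

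Lists of stem cell identity, proliferation and housekeeping lay near 0. Lgr5 had a difference of -0.02 (interval -0.57 to 0.54), resting on 62 and 56 counts in GFP-low. Ascl2, the stem cell transcription factor, had -0.51 (-1.24 to 0.20), and Olfm4, a secreted stem cell protein, -0.24 (-0.31 to -0.17). Of the stem cell markers 22 of 31 and of the Wnt targets 12 of 16 stood below 0, with medians of -0.16 and -0.13. Median differences were -0.11 for 21 S phase genes, 0.08 for 22 G2/M genes, -0.14 for 24 cholesterol synthesis genes and 0.03 for 30 cytosolic ribosomal proteins, and none of these genes was counted. Interferon and MHC class I genes had a median of 0.08, with none of 25 counted, and 23 of 25 nuclear respiratory chain genes stood above 0 with a median of 0.11 and none counted. Genes of the unfolded protein and integrated stress response had 17 of 21 members below 0, with a median of -0.20 and none counted.

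**Figure D5:**
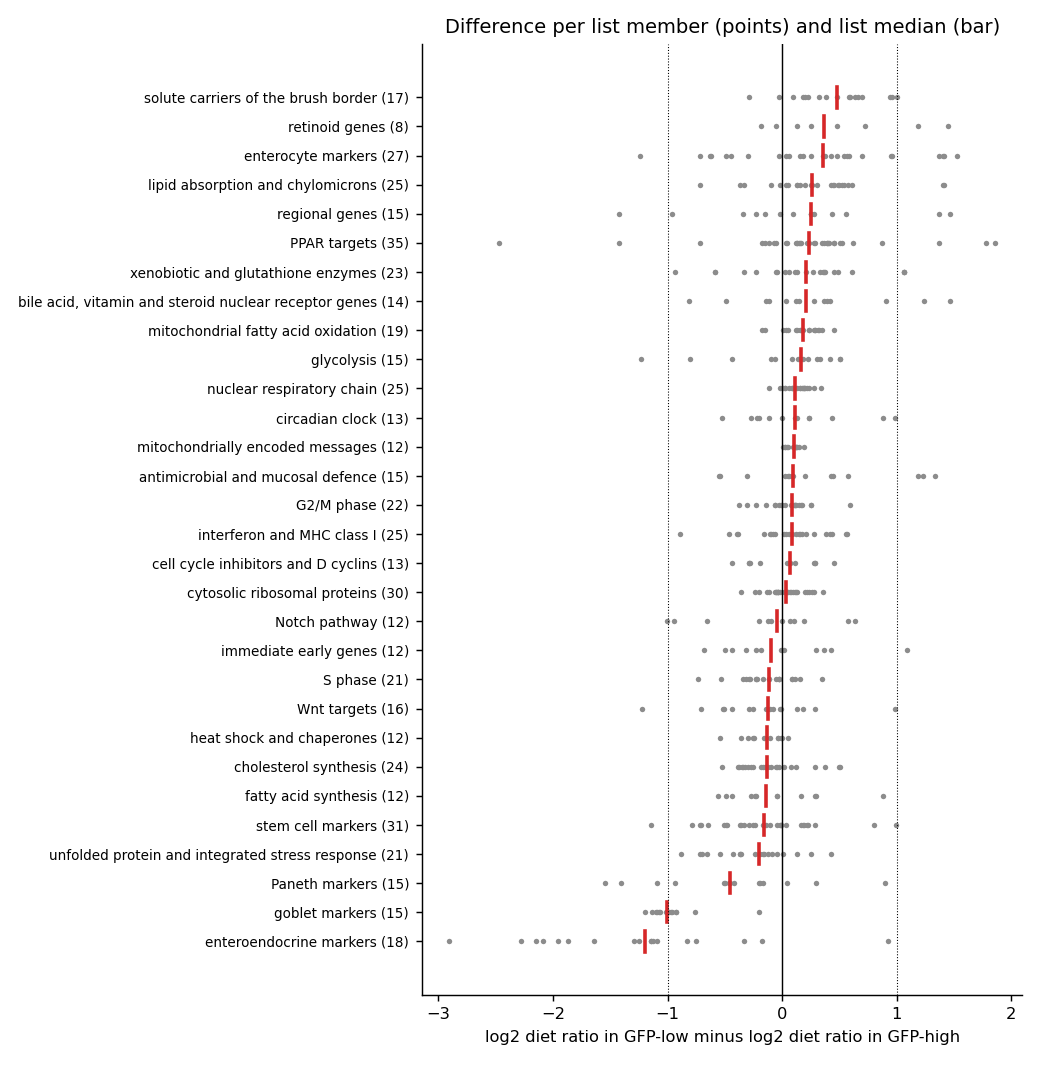
The difference of log2 diet ratios (GFP-low minus GFP-high) for each measured member of the gene lists with at least 8 measured members (points, number in brackets) and each list's median (red bar). Goblet and enteroendocrine markers have medians of -1.002 and -1.20, beyond the other lists, and brush border solute carriers stand at the other end with 0.48. Some enteroendocrine and solute carrier members stand under 5 CPM in both GFP-high libraries, where ratios rest on few reads.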

How the data were processed

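The authors deposited whole-number read counts for each gene, without normalization. Reads were handled with cutadapt, TopHat version 1.4.1, HTSeq and the builds GRCm38 and mm10, per the submitters' processing notes. Which annotation HTSeq read, and with which strand option, is not given in the sources used here. Overlapping or near-identical genes may therefore share reads. Every table listed 38124 gene IDs, of which 1779 had no symbol in the reference (1.88% to 2.39% of counts), and no row lacked an ID. Positions, biotypes and exon overlaps were taken from GENCODE M21 on GRCm38.

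Library sizes were scaled with TMM in edgeR version 4.0.16 (R version 4.3.3), with 0.5 CPM added before log2, which understates changes of low genes. Intervals for a difference are exact conditional intervals for a ratio of count ratios, checked on simulated data. The GFP-high libraries held 6207080 (HFD) and 5201394 (control) counts, and the GFP-low libraries 5327015 and 4677389. With 1 library per group no model was fitted and no p-value was computed.

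The 38 gene lists, the classes and the naming rule were chosen with earlier results of these data known, so no list is independent evidence. The rule ranked genes at 10 CPM or more by the bound of the interval nearest 0. It took the first 6 of each of the 4 single-fraction classes, 3 of each direction among opposite answers and among genes measurable in a single fraction, 2 of each direction among same-direction answers, each list's 2 highest and 2 lowest members, and a fixed set of genes. IDs without a symbol, pseudogenes and predicted genes were skipped. Alternatives were DESeq2 size factors (version 1.42.0), library totals, TMM without mitochondrially encoded genes, other pseudocounts, other filters and a tighter limit in the other fraction. Protein-coding genes only and genes with no exon overlap were added after seeing the data. Results for some genes are not reported here.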

Additional observations from a re-analysis of the deposited data

Results flagged for a closer look

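In 5 of the genes named by rule the diet ratio had opposite signs in the fractions, at least 1.5-fold in each, and these differences were not tested, since each rests on 1 library per group. Apoa1 (difference 1.41) and Pcdh19 (1.73) were lower under HFD in GFP-high and higher in GFP-low, as was Hist1h1a (1.67), which was looked up after the values were seen. Gcg (-2.15), Tpbg (-1.85) and Suox (-1.51) were higher under HFD in GFP-high and lower in GFP-low. Pcdh19 and Tpbg overlap a gene on the other strand, Gm26851 and 9330154J02Rik, and the part of those reads was not tested.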

How the results depend on the processing

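No paired analysis was possible because each group has 1 library, and for the same reason no replicate could be left out. Any error of 1 library enters each difference in full. Of the 262 counted genes, DESeq2 size factors kept all 262, TMM without mitochondrially encoded genes kept 257 of 266 counted, library totals kept 248 of 273, a pseudocount of 0.1 CPM kept 262 of 273 and a filter of 10 counts in 1 library kept 259 of 278. No counted gene changed sign under these or the other alternatives run. Library totals moved the median difference of all genes to -0.05.

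A larger pseudocount shrinks differences of low genes, and the stricter filters test fewer genes, so both lower the counts by construction. A pseudocount of 2 CPM left 64 genes with a larger response in GFP-low, 8 higher and 18 lower in GFP-low alone, 4 higher and 8 lower in GFP-high alone and 8 opposite. A filter of 100 counts in 2 libraries left 22 larger and 46 smaller, then 3, 16, 2 and 7 in the single-fraction classes (in the same order) and 3 opposite. A minimum of 20 CPM in the highest library left 41 larger and 65 smaller. The single-fraction and opposite classes then needed 20 CPM, in place of 5 CPM, in 1 of the diets in both fractions. They held 0, 11, 0 and 7 genes, and 2 opposite. With protein-coding genes only, 7 genes were lower in GFP-high alone. The genes lower in GFP-low alone were thus 29, 18, 16 and 11. Those higher in a single fraction came down to 0 when 20 CPM was needed in both fractions. Of the recomputed differences of named genes, 909 stayed within their counting interval or moved by under 0.1 and 1 did not, and of the recomputed list medians 247 moved by at most 0.1 and 16 by more. At a pseudocount of 0.1 CPM the median of the enterocyte list was 0.22 and that of the enteroendocrine list -1.39, and the goblet, enteroendocrine and enterocyte medians changed sign under none of the alternatives they were recomputed under. The counting interval included 0 for 8737 of the 10694 genes, so smaller differences were not detectable at this depth.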

Other observations

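The genes below lie outside the naming rule and were picked out after their values were seen, so they stand for no group. Chst4 and Galnt5, which modify mucin sugars, had differences of -1.42 (interval -2.09 to -0.80) and -1.42 (-2.03 to -0.85). Rab27b, a granule docking GTPase, stood at 32.2 (HFD) and 26.3 CPM (control) in GFP-high, and 54.3 and 105 CPM in GFP-low, a difference of -1.23 (-1.63 to -0.86). Ern2, the stress sensor of mucus-secreting cells, stood at -1.01 (-1.31 to -0.73), and Dnajc10, a disulfide reductase of the endoplasmic reticulum, at -1.02, from 489 and 415 counts in GFP-high and 718 and 1336 in GFP-low. All of these were highest in the control GFP-low library.

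Fgfr2 and Btc were among the genes lower under HFD in GFP-low alone. Fgfr2, a fibroblast growth factor receptor whose exons overlap Ctbp2, stood at 71.2 and 69.5 CPM in GFP-high and 48.7 and 101 CPM in GFP-low, a difference of -1.08 (-1.39 to -0.78). Btc, the EGF receptor ligand betacellulin, had 44 and 42 counts in GFP-high and 22 and 52 in GFP-low, a difference of -1.11 (-2.22 to -0.18). Among larger responses in GFP-low, Muc3, a membrane mucin of enterocytes, stood at 42.1 and 52.8 CPM in GFP-high and 165 and 92.2 CPM in GFP-low, a difference of 1.16 (0.87 to 1.47). Hsd17b11, an enzyme of lipid droplets, had 670 and 574 counts in GFP-high and 1160 and 529 in GFP-low, a difference of 1.02. Rdh7, a retinol dehydrogenase, had 77 and 33 counts in GFP-high and 267 and 55 in GFP-low, a difference of 1.18 (0.39 to 1.93). Bmp4, on the fixed list, had 0 counts in every library, and Dclk1, a tuft cell kinase, had 5 and 1 in GFP-high and 16 and 25 in GFP-low.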
